A study of Homo sapiens with 20 samples.

Results

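The DNA replication licensing genes described here are MCM2, MCM3, MCM4, MCM5, MCM6, MCM7, MCM10, CDC6, CDT1 and RRM2, taken by name from a list and located in the RefSeq annotation of GRCh38. They are 10 of 19974 protein-coding genes. Peaks were counted as theirs when they overlapped the gene body plus 50 kb on each side, which gave 1768 of 992895 peaks over 18 peak lists. Peaks at a gene's own start were kept apart from peaks elsewhere in the window.

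The lists come from ChIP-seq of HCT116, an established human colorectal carcinoma line, with MLL4 knocked out (KO) or unmodified (WT). MLL4 (KMT2D) and MLL1 (KMT2A) are enzymes that methylate lysine 4 of histone H3. Chromatin was precipitated for H3K4me3, H3K27ac and p53 with 2 libraries per genotype, and for H3K4me1, MLL4 and MLL1 with 1 library per genotype, so these 3 targets have no replicate check. The series was designed to look at how MLL4 and p53 work together on chromatin. Both lines came from an outside laboratory, and no p53-activating agent is listed in the labels. Whether the KO line is 1 clone and whether replicates were separate cultures is not stated, so a p-value here covers library-to-library spread alone, possibly of technical origin. All lists of a genotype were called against 1 input library. Lists ranged between 278 peaks for MLL4 in KO and 198757 for H3K27ac in WT replicate 2, and read depth is unknown. H3K4me3 marked the promoters of EPCAM, CDH1, KRT18, CDX2, LGR5 and ELF3 in all 4 libraries, 6 of 10 colon epithelial markers. KRT8 was marked in 2 libraries, and KRT20, CDX1 and VIL1 in none. Of 4 blood markers 1 was marked (SPI1). Since 60.3% of all protein-coding promoters were marked in all 4 libraries, the colon count cannot check the cell line.

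Licensing prepares origins for 1 round of replication per cell cycle. In G1 the origin recognition complex, CDC6 and CDT1 load the MCM2-7 hexamer, the core of the replicative helicase, onto DNA. MCM10 then helps to turn the loaded helicase into an active one, and RRM2, the small subunit of ribonucleotide reductase, helps to supply the deoxyribonucleotides that replication consumes. These genes are textbook targets of E2F transcription factors and are induced as cells approach S phase, which makes them markers of proliferation in colon cancer cells.

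Promoter sequences were found in RefSeq (GRCh38.p14) for 8 of the 10 genes, all but MCM4 and MCM5. They are shown because every promoter result below refers to these starts, and because most of them carry the E2F letters for which the family is known. Each stretch runs 5′ to 3′ on the gene's strand over 200 bases, 180 before the start and 20 from it on. Capitals mark E2F letters (TTTCCCGC, TTTCGCGC, TTTGCCGC or TTTGGCGC, and the variant TTTGGCGG, which was added after the sequences had been read) and CCAAT boxes, on either strand. Positions are chr3:127598231-127598430 (+) for MCM2, chr2:135876424-135876623 (−) for MCM6, chr10:13161378-13161577 (+) for MCM10, chr17:40287699-40287898 (+) for CDC6, chr16:88803609-88803808 (+) for CDT1 and chr2:10122559-10122758 (+) for the second start of RRM2.
MCM2: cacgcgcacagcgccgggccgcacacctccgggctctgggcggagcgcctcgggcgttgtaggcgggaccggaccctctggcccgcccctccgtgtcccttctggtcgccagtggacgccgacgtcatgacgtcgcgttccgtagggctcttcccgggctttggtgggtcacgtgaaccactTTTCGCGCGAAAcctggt
MCM6: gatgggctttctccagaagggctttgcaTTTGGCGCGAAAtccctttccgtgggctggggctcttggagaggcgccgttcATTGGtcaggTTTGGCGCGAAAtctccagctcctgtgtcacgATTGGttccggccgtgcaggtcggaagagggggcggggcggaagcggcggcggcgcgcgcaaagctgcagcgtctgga
MCM10: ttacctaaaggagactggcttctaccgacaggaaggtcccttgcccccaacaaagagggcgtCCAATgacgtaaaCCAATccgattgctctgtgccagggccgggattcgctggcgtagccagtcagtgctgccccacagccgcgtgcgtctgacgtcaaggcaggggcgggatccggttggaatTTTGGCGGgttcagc
CDC6: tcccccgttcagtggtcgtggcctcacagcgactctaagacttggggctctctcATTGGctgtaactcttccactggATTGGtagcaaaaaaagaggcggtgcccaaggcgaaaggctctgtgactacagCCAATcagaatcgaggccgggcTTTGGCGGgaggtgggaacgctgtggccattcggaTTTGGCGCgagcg
CDT1: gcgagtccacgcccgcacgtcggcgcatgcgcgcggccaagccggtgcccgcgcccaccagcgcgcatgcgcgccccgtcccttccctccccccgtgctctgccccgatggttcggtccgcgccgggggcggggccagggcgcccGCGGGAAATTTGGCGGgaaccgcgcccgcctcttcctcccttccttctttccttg
RRM2: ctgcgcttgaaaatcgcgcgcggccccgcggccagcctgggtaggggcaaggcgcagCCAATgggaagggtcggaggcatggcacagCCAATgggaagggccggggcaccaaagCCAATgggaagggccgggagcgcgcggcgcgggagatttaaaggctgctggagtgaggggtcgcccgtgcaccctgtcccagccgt

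The 4 E2F words occurred in the 300-base promoters of 6 of the 8 genes (MCM2, MCM3, MCM6, MCM7, CDC6 and CDT1), against 4.01% of the 27195 genes in the table. That set, used for all letter shares here, was not limited to the 19974 protein-coding genes used for peaks. MCM6 held the letters at 2 places, beginning 152 and 90 bases before its start, and at both the words on the 2 strands overlap. MCM10 had the variant only, CDC6 and CDT1 had it as well, and it occurred in 0.813% of genes. RRM2 had neither the E2F words nor the variant. CCAAT boxes, the letters bound by NF-Y, occurred in 6 of the 8 genes (39.7% of all genes), with 3 in a row before the second RRM2 start at 123, 93 and 66 bases. The CHR letters TTTGAA or TTCGAA of cell cycle genes occurred in MCM6 alone (19.5% of all genes), and the SP1 letters GGGCGG in 6 of 8 (48.4%). A match describes letters and not binding.

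The genes lie on 9 chromosomes. On hg38, MCM2 spans 127598411 to 127622436 of chromosome 3, MCM3 52264015 to 52284742 of chromosome 6, MCM4 47960941 to 47978160 of chromosome 8 and MCM5 35400140 to 35455031 of chromosome 22. MCM6 spans 135839626 to 135876443 of chromosome 2, MCM7 100092728 to 100101397 of chromosome 7 and MCM10 13161558 to 13211110 of chromosome 10. CDC6 spans 40287879 to 40304657 of chromosome 17, CDT1 88803789 to 88809258 of chromosome 16 and RRM2 10122568 to 10211010 of chromosome 2. A promoter was the sequence within 1 kb of an annotated start. For MCM4 and MCM5, whose strand the tables used here do not give, either gene end was allowed, and their H3K4me3 peaks lay at the lower-coordinate end. MCM2 shares its promoter window with TPRA1, MCM4 with PRKDC and MCM7 with AP4M1, so peaks there cannot be assigned to 1 gene of the pair.

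The promoters of all 10 genes kept H3K4me3, the mark of active promoters. A peak was called in all 4 libraries at each of them, as at 60.3% of all protein-coding promoters. H3K27ac, which marks active promoters and enhancers, was likewise called at all 10 in all 4 libraries (63.4% of promoters), and MLL1 at all 10 in both libraries (57.1%). The MLL4 list held no promoter peak of these genes in KO, against 5 genes in WT (MCM2, MCM4, MCM6, MCM7 and CDT1). Over all promoters the share was 0.015% in KO and 38.8% in WT. Those WT peaks were weak, between 3.39-fold at MCM4 and 6.67-fold at MCM2 and CDT1, where fold is the authors' ratio of ChIP signal over local background at a peak. No promoter of the family therefore lost its peak of H3K4me3 or H3K27ac, and the differences between genotypes were in height and width.

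H3K27ac was lower at the promoters of all 10 genes. The higher KO library lay below the lower WT library at every one, which was also true of 88.2% of all promoters called in the 4 libraries. Over the 10 genes the median log2 KO over WT was −1.79, against −0.95 over 12672 promoters. It was −1.08 over the 7214 promoters whose WT fold lay in the same range as theirs (29.8 to 172.5). With 2 libraries against 2, the exact two-sided permutation test cannot go below p = 0.333, which it gave for each of the 10. Dividing each library by its own median over promoters left 8 of the 10 lower, against 21.5% of promoters; MCM4 and CDC6 then overlapped between genotypes.

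Among the helicase subunits, MCM5 had the deepest difference. Its H3K27ac fold was 11.6 and 14.7 in KO, against 64.3 and 56.4 in WT, a log2 difference of −2.20 ± 0.19 (SE, n = 2 each). The MCM5 summit lay at −546 and 220 bp from the start in KO, against 247 and 221 bp in WT. MCM2 had 18 and 17.0 in KO, against 67.7 and 63.5 in WT (−1.91 ± 0.06). In both genes the KO libraries stood close together and far below the WT ones. MCM7, with the highest promoter fold of the 6 subunits, had 41.0 and 45.0 in KO, against 163 and 116 in WT (−1.67 ± 0.26). MCM4 had 34.3 and 18.7 in KO, against 78.3 and 56.6 in WT (−1.39 ± 0.49). MCM3 had 17.0 and 19.5 in KO, against 49.0 and 40.2 in WT (−1.29 ± 0.17). MCM6 was the subunit with the smallest difference, at −1.19 ± 0.06. Its folds were 17.9 and 17.4 in KO, against 41.9 and 38.7 in WT. In this fold the promoters of the single complex differed among themselves by about 1 log2 unit, with no overlap between KO and WT at any of them. The spread depended on the local background. With fold taken over the lowest background of each list, as described below, the 6 subunits stood between −1.72 (MCM5) and −1.25 (MCM6).

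MCM10, the activation factor, had the lowest mean H3K27ac fold of the 10 promoters in each genotype. It had 8.52 and 6.65 in KO, against 35.9 and 24.8 in WT (−1.99 ± 0.32). CDC6, the loader, had 21.7 in each KO library, against 55.9 and 28.7 in WT (−0.89 ± 0.48). In this fold it was the 1 gene of the 10 above the median of all promoters. CDT1, the other loader, had 77.7 and 25.9 in KO, against 181 and 164 in WT (−1.94 ± 0.80). Its value does not describe its start alone. In KO replicate 1 and in both WT libraries the peak reached over APRT, was 15278, 18439 and 18415 bp wide, and had its summit 7956, 7921 and 7938 bp past the CDT1 start; in KO replicate 2 it was 4867 bp wide with its summit at 412 bp. RRM2 had 13.9 and 21.0 in KO, against 78.3 and 86.4 in WT (−2.26 ± 0.30), the deepest difference of the family. Its summits lay at −448 and −471 bp from the nearest start in KO, against −105 and −107 bp in WT.

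**Figure D1:**
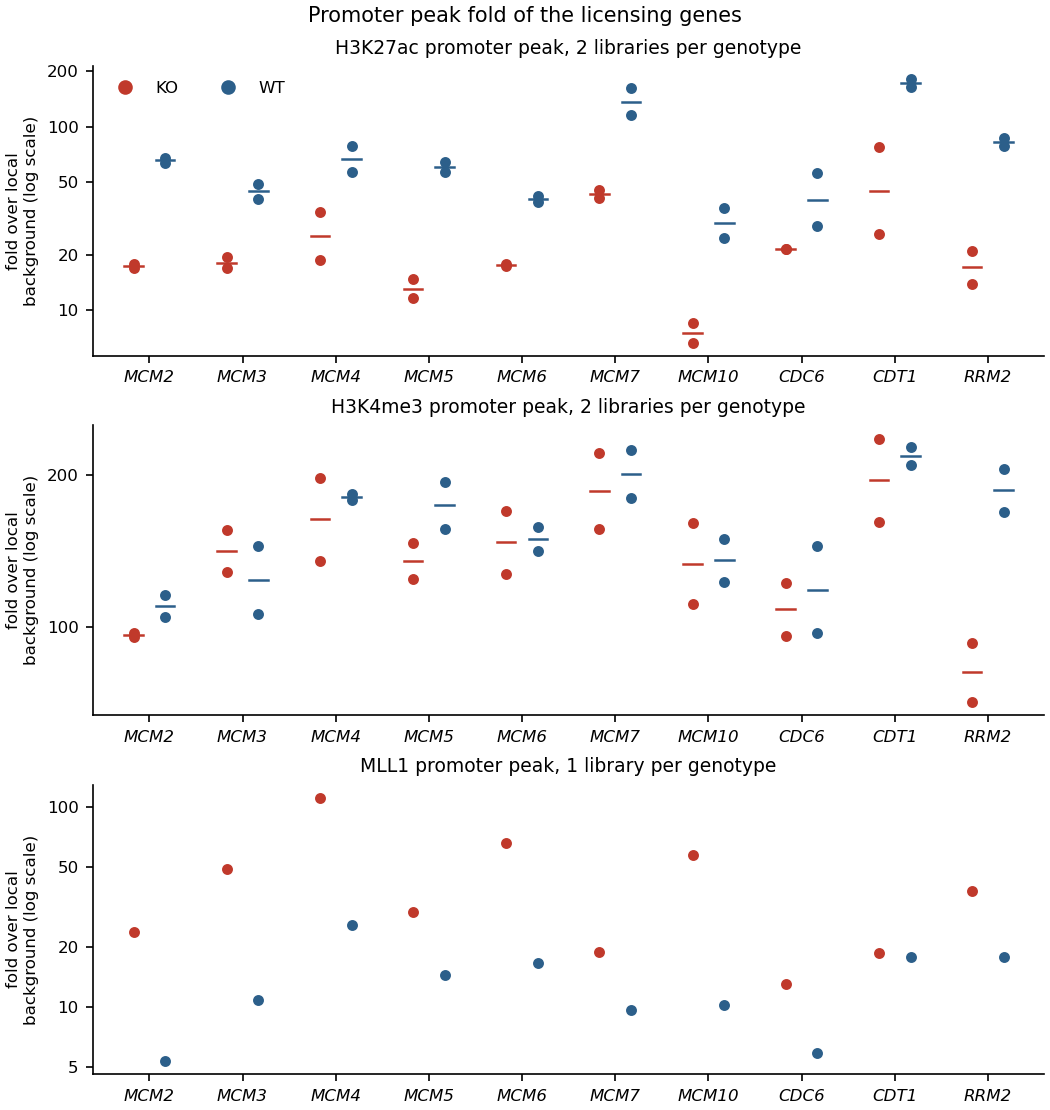
Fold over local background (log axis) of the promoter peak of each licensing gene, with KO in red left of WT in blue; each point is 1 library and each bar the mean on the log scale of 2 libraries. H3K27ac points of KO lie below those of WT at all 10 genes, H3K4me3 points overlap at 7, and the single MLL1 point of KO lies above that of WT at all 10, nearly level at CDT1.

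H3K4me3 differed far less. Its KO libraries lay below both WT libraries at 3 of the 10 promoters, MCM2, MCM5 and RRM2 (21.5% of all promoters), and above them at none (10.6%). The median log2 difference was −0.14 over the 10 genes and −0.06 over 12038 promoters. CDT1, for example, had 161 and 236 in KO, against 227 and 209 in WT, and MCM6 had 127 and 170.0 in KO, against 141 and 158 in WT. Divided by the library median, 2 were lower (MCM5 and RRM2; 17.7% of promoters). The count of 3 depended on the libraries used: it was 8 without KO replicate 2 and 5 without WT replicate 1.

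RRM2 stood apart. Its H3K4me3 fold was 71.3 and 93.3 in KO, against 169 and 206 in WT (−1.19 ± 0.24), a lower log2 value than at all but 0.914% of promoters. This value moved with the local background that the fold divides by. The background and the number of ChIP fragments at a summit can be worked out from a peak's fold and p-value, and were obtained for all 80 H3K4me3 and H3K27ac promoter peaks of the 10 genes. At RRM2 the background was 2.54 and 2.49 times the lowest level of its list in KO, against 1.13 and 1.00 times in WT. All KO lists were called against the same KO input, so the higher background is 1 measurement and not several. The summit held 488 and 773 H3K4me3 fragments in KO, against 684 and 1123 in WT, in libraries of unlike depth. With fold taken over the lowest level of each list instead, an alternative chosen after seeing the data, the RRM2 difference was −0.27, none of the 10 genes was lower in H3K4me3 (3.63% of promoters), and MCM2 stood at 0.10 in place of −0.19. At 8.56% of promoters the KO background was at least 2 times the lowest level, as at RRM2, against 2.37% in WT.

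On the same scale H3K27ac stayed lower in both KO libraries at all 10 genes (86.5% of promoters), with a median of −1.48 against −0.79 over 12078 promoters. RRM2 then stood at −1.54, MCM5 at −1.72 and MCM2 at −1.51. MCM10, at −1.93, and CDT1, at −1.92, had the deepest values, and 1.22% and 1.28% of promoters had lower ones. The CDT1 value again compares unlike places, since the summit of KO replicate 2 lay elsewhere than that of the other libraries. Its folds on this scale were 77.7 and 26.8 in KO, against 181 and 164 in WT. Fragments at the MCM2 summit numbered 83 and 59 in KO, against 237 and 338 in WT. CDC6 remained the smallest difference, at −1.07, but on this scale it too lay below the median of all promoters.

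**Figure D2:**
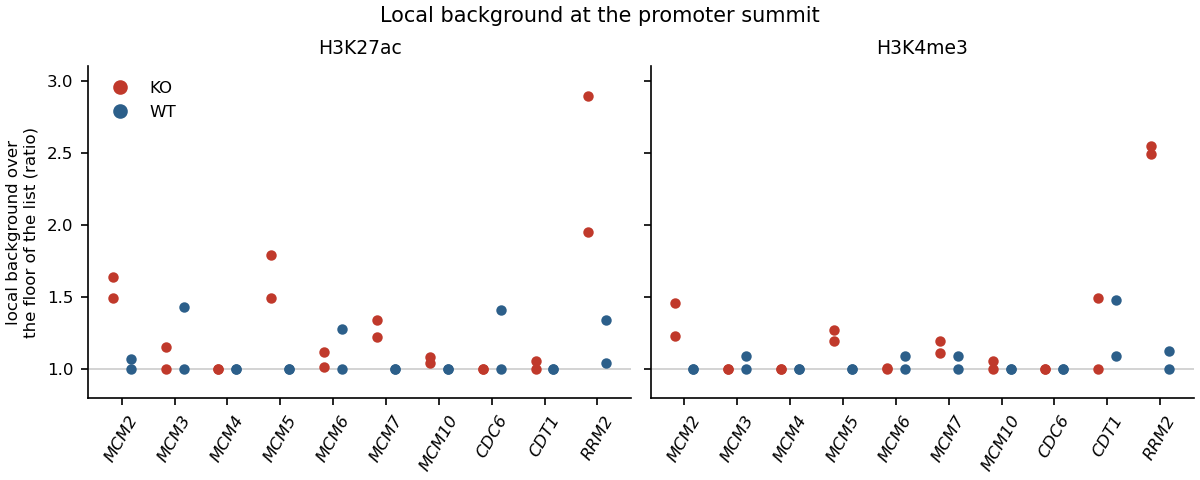
Local background at the summit of each promoter peak, as a multiple of the lowest level in its list (ratio), for H3K27ac and H3K4me3, with 1 point per library, KO in red left of WT in blue. RRM2 in KO lies between 1.95 and 2.89, above every other point.

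MLL1 had a higher promoter fold in KO at all 10 genes, as did 97.9% of promoters, and has 1 library per genotype. The median log2 difference was 1.56 over the 10 and 1.64 over 11409 promoters. MCM10 had the largest value (57.6 in KO, against 10.2 in WT, 5.65-fold higher). MCM4 had the highest fold in either genotype, 111 in KO, against 25.8 in WT (4.29-fold higher). CDT1 was almost level, with 18.5 in KO, against 17.7 in WT (0.06), and only 2.62% of promoters had a lower value. Its 2 folds come from different places, with the summit at −1460 bp from the start in KO and at 1021 bp in WT. The family was thus split around the median of all promoters, with MCM2, MCM3, MCM4, MCM6 and MCM10 above it and the other 5 below.

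p53 peaks lay at the start of 8 of the 10 genes in both KO libraries (56% of promoters) and of 5 in both WT libraries (49.7%). MCM2, MCM4, MCM7, CDT1 and RRM2 had them in all 4 (42.4%). MCM3 had one in KO only, weak at 5.95- and 3.26-fold (13.8% of promoters called in KO), and MCM5 and CDC6 in KO replicate 2 alone, the longest p53 list. MCM6 and MCM10 missed the WT count through WT replicate 1 only. MCM6 had 5.81 and 10.0 in KO, against 11.1 in WT replicate 2. MCM10 had 8.28 and 7.31 in KO, against 12.7 in WT replicate 2. The WT peak was thus the higher one in fold, but folds of that library ran high. Over promoters called in all 4 libraries the median p53 fold was 7.32 and 9.27 in KO, against 9.06 and 18.3 in WT. Both WT values lay below the median of their library. Of the 5 promoters with p53 in all libraries, 3 had a lower fold in both KO libraries (44.6% of promoters): MCM2 had 4.79 and 5.32 in KO, against 8.19 and 7.61 in WT. CDT1 had 5.05 and 11.5 in KO, against 12.8 and 40.9 in WT. RRM2 had 7.20 and 8.83 in KO, against 8.97 and 12.9 in WT. At MCM4 and MCM7 the groups overlapped, MCM7 having 10.1 and 13.6 in KO, against 6.80 and 11.3 in WT. The two-sided exact permutation p was 0.333 for MCM2, CDT1 and RRM2, the smallest possible.

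H3K4me1, which flanks promoters and marks enhancers, was called at all 10 promoters in KO (57.8% of promoters) and at 8 in WT (71.9%). At CDC6 and MCM3 no WT peak reached within 1 kb of the start (4.78% of promoters called in KO). At MCM3 a WT peak of 4.93-fold lay just outside that distance, past the start, and overlapped the KO peak of 4.41-fold. Upstream, a WT peak of 3.55-fold covered 265 bp farther out. It lay within the KO peak of 3.59-fold, which covered 2322 bp and reached within 1 kb. The CDC6 peak, 3.17-fold in KO, overlapped no WT peak. A WT H3K4me1 peak did begin just beyond 1 kb past the CDC6 start. There it overlapped the end of the MLL1 region (chromosome 17, 40287756 to 40289115), so the CDC6 call also depended on the distance chosen. Where it was called in both, fold was lower in KO at 7 of 8 (83.4%), all but RRM2 with 4.55 in KO, against 4.26 in WT. The CDT1 peak was 4088 bp wide in KO, against 23402 bp in WT, with folds of 4.99 in KO and 11.7 in WT.

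Peak widths followed the other promoters. H3K4me3 was wider in both KO libraries at 5 of the 10 genes (47.5% of promoters) and narrower at none (2.04%). H3K27ac was narrower in both KO libraries at 5 (47.4%) and wider at 2 (17%), and MLL1 wider in KO at 8 (86%) and narrower at 2 (13.9%). For MCM10 the H3K27ac peak was 563 and 622 bp in KO, against 1600 and 1397 bp in WT. MCM4 and MCM7 had the 2 wider ones, MCM4 at 2932 and 3571 bp in KO, against 2486 and 2091 bp in WT. At MCM7 the highest peak was 4455 and 5130 bp wide in KO, against 3619 and 3690 bp in WT. Each WT library had 2 peaks there, which together covered 5348 and 4484 bp, so on covered length the groups overlapped.

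**Figure D3:**
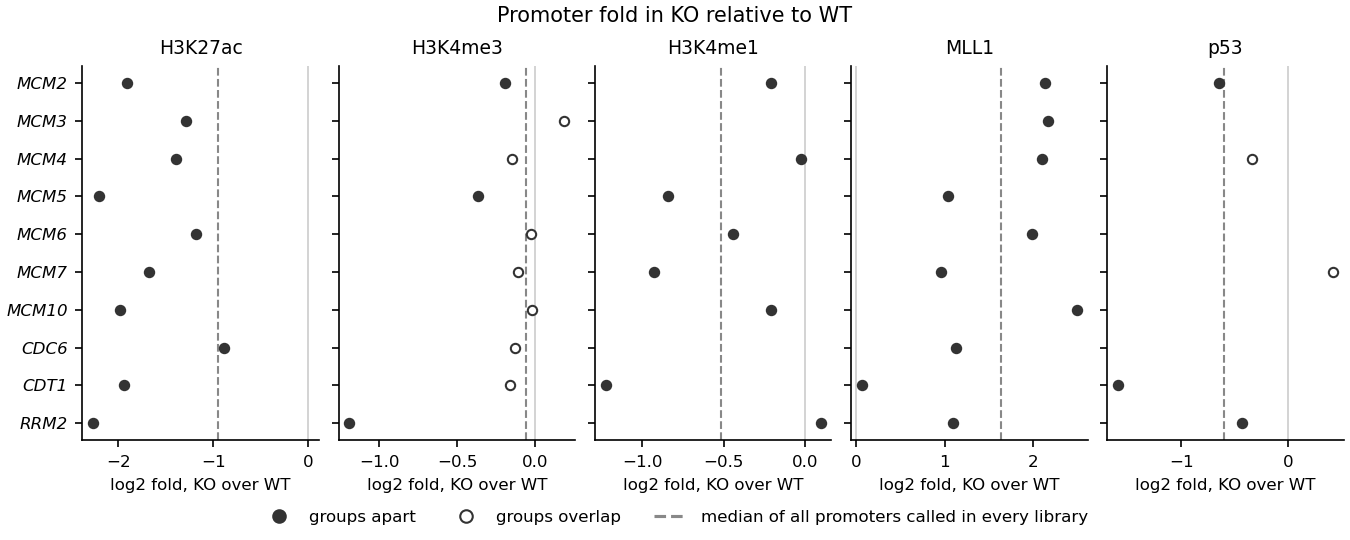
log2 of promoter fold, KO over WT, for each licensing gene (rows) and target (columns); filled points are genes whose KO and WT libraries did not overlap (a single library each for H3K4me1 and MLL1), open points overlapped, and the dashed line is the median of all promoters called in every library. In H3K27ac 9 of the 10 points lie left of the dashed line, and RRM2 lies far left in H3K4me3.

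Away from promoters, H3K27ac regions were fewer in KO. A distal region was outside 1 kb of every protein-coding start, and WT-only when called in both WT libraries and in neither KO library. KO-only regions, defined the other way round, numbered 3 of 51 called in both KO libraries in the 10 windows (5.88%, against 5.17% of all distal regions of KO). Of 145 called in both WT libraries, 61 were WT-only (42.1%, against 62.1%). With promoter peaks included, the 2 H3K27ac lists of KO held 173 and 157 peaks in the windows, against 221 and 284 in WT. These were 0.266% and 0.253% of the KO lists, against 0.159% and 0.143% of the longer WT lists. With all lists shortened to equal length, 5 of 51 regions were KO-only (9.80%, against 14%) and 17 of 61 WT-only (27.9%, against 29.6%). Without WT replicate 1, 140 regions were WT-only.

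Most of these distal regions lay around a few of the genes. The MCM5 window had 53 in WT, of which 20 were WT-only, RRM2 had 33 with 18 WT-only, and MCM2 had 20 with 7. MCM10 and MCM3, in contrast, had 2 each in WT. The strongest WT-only region of the family was 4056 bp before the CDT1 start (chromosome 16, 88798729 to 88800737), 9.29- and 9.30-fold in WT. At RRM2 it lay beyond the 3′ end (chromosome 2, 10242514 to 10244498; 7.79 and 8.55 in WT), at MCM5 past the higher-coordinate end (chromosome 22, 35467665 to 35468350; 7.86 and 7.61) and at MCM2 within the gene (chromosome 3, 127604453 to 127605226; 6.28 and 7.80). WT-only regions were weak, with a mean WT fold between 2.94 and 9.29 and a median of 4.67.

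Regions called in every library had a mean WT fold between 3.71 and 57.9, with a median of 7.46. Of 47 such distal regions, 33 had a lower fold in both KO libraries (73.1% of all), with a median log2 of −0.59, against −0.71 over all such regions. The strongest was in the MCM4 window (chromosome 8, 48007645 to 48009157), with 26.8 and 22.9 in KO, against 58.3 and 57.5 in WT. An H3K4me3 peak of 63.2- and 114-fold in KO, against 98.3- and 109-fold in WT, overlapped it. In the MCM5 window a region 6352 bp wide (chromosome 22, 35488154 to 35494505) had 26.4 and 28.8 in KO, against 36.8 and 41.1 in WT, with H3K4me3 of 52.0 and 33.4 in KO, against 59.96 and 65.3 in WT. In the MCM2 window the region at 127543374 to 127548908 of chromosome 3 had 22.5 and 20.9 in KO, against 34.2 and 21.7 in WT, where the groups overlapped, and it also held MLL4, MLL1 and p53 peaks. Its H3K4me3 was 58.7 and 75.2 in KO, against 38.9 and 27.9 in WT. These 3 regions are distal by distance to annotated coding starts only, and they carried the mark of active promoters.

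The 3 KO-only regions lay at MCM3, MCM2 and RRM2. The MCM3 one was 2656 bp upstream of the start (chromosome 6, 52287215 to 52287581), 6.96- and 6.27-fold in KO. The MCM2 one was within the gene (chromosome 3, 127610242 to 127611136), 5.71 and 4.06 in KO. The RRM2 one lay 3001 bp past the second start (chromosome 2, 10124985 to 10126496), 4.97 and 3.18 in KO, and overlapped the MLL1 peak of KO there. None was called in a WT library. The median fold of all peaks lay between 4.56 and 4.80 in the 4 lists. Without KO replicate 1, 11 regions were KO-only, and without KO replicate 2, 8 were.

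**Figure D4:**
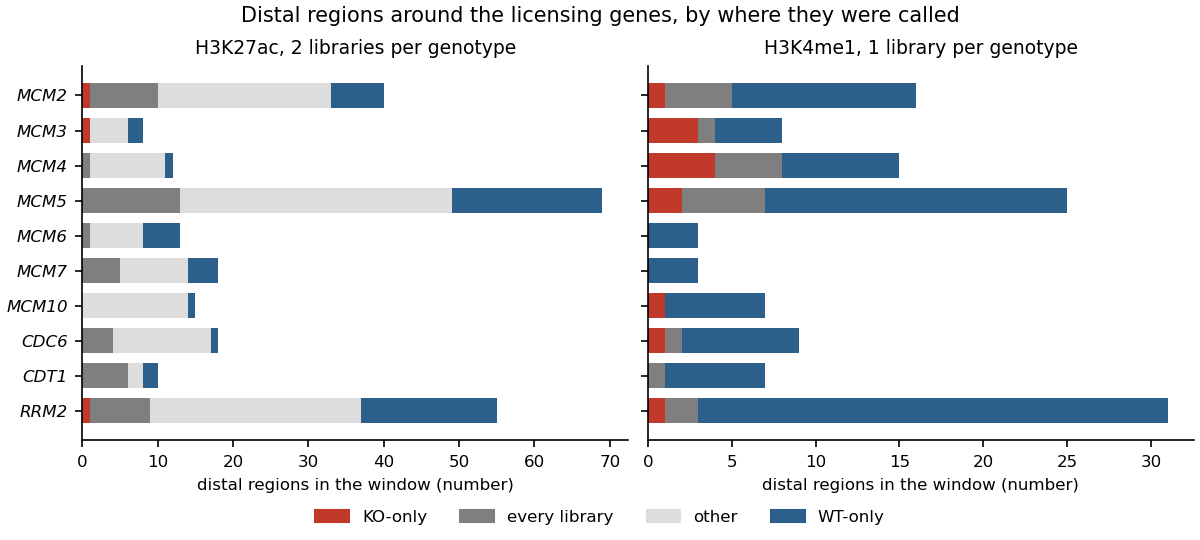
Number of distal H3K27ac (left) and H3K4me1 (right) regions in the window of each licensing gene, coloured by the libraries that called them: KO-only (red), every library (dark grey), other combinations (light grey) and WT-only (blue). MCM5 and RRM2 hold the most H3K27ac regions, 69 and 55, and H3K27ac KO-only regions appear at MCM2, MCM3 and RRM2 alone.

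H3K4me1 was KO-only at 13 of 31 distal regions of KO (41.9%, against 34% of all distal regions of KO) and WT-only at 93 of 111 of WT (83.8%, against 86.4%). These regions have 1 library per genotype. RRM2 had the most in WT, 28 WT-only of 30, followed by MCM5 with 18 of 23 and MCM2 with 11 of 15. MCM4 kept the most in relation to its number, with 7 WT-only of 11. With lists of equal length, 20 of 31 were KO-only (64.5%, against 57.2%) and 18 of 29 WT-only (62.1%, against 69.3%). The covered length in the 10 windows was 114 kb in KO, against 485 kb in WT. The whole lists differed in a similar way, covering 49.7 Mb in KO, against 218 Mb in WT.

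MLL4 itself was called at no region of the windows in KO and at 101 in WT. Of these 82 were distal, all WT-only as were 99.7% of distal MLL4 regions, 26 of them in the CDT1 window, 11 in the MCM7 window and 9 each in those of MCM2, MCM5 and RRM2. The strongest lay 35439 bp past the CDT1 start, in GALNS (chromosome 16, 88838949 to 88839507; 45.0-fold). It lay within a broad H3K27ac region called in all libraries (88831719 to 88845562), whose fold was 4.86 and 5.53 in KO, against 16.2 and 14.0 in WT. Of the 61 WT-only H3K27ac regions, 7 overlapped an MLL4 peak of WT (11.5%, against 9.31% of all WT-only distal regions). Of the 47 called in every library, 15 did (31.9%, against 25.6%). Both shares were near those over all distal regions of their class. Under a stricter threshold (−log10 q of 5 or more) the windows held 28 MLL4 regions in place of 101.

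p53 was called in both libraries at 47 regions in the windows in KO and at 38 in WT. The order of these counts depended on the setting. At −log10 q of at least 5 they were 25 in KO and 35 in WT, and with lists of equal length 31 and 32. At distal sites 8 of the 24 KO regions were KO-only (33.3%, against 21.5% of all distal p53 regions of KO), 2 each at MCM5, CDC6 and CDT1 and 1 each at MCM2 and RRM2. Of the 22 WT regions, 0 were WT-only (18.7% over all). Without KO replicate 1 the KO count was 119 in place of 47. The CDT1 window held 13 of the 24 in KO and 17 of the 22 in WT, so distal p53 near licensing genes was mostly that of the CDT1 neighbourhood. MLL1 was KO-only at 28 of 41 distal regions (68.3%, against 73%) and WT-only at 33 of 46 (71.7%, against 79.7%), and 11 of the 28 were again in the CDT1 window.

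The CDT1 window had the largest share of its length under H3K27ac peaks in each of the 4 libraries. H3K27ac peaks covered 53.6 and 41.3 kb of its 105 kb window in KO, against 96.4 and 100.2 kb in WT. The KO lists had more peaks there, 34 in each library, against 16 in each WT library, so the KO peaks were more numerous and shorter. The RRM2 window had 23.5 and 14.1 kb covered in KO, against 52.2 and 78.3 kb in WT, and the MCM5 window 24.8 and 22.7 kb in KO, against 67.8 and 80.3 kb in WT. The whole H3K27ac lists covered 62.6 and 51.6 Mb in KO, against 155 and 198 Mb in WT.

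**Figure D5:**
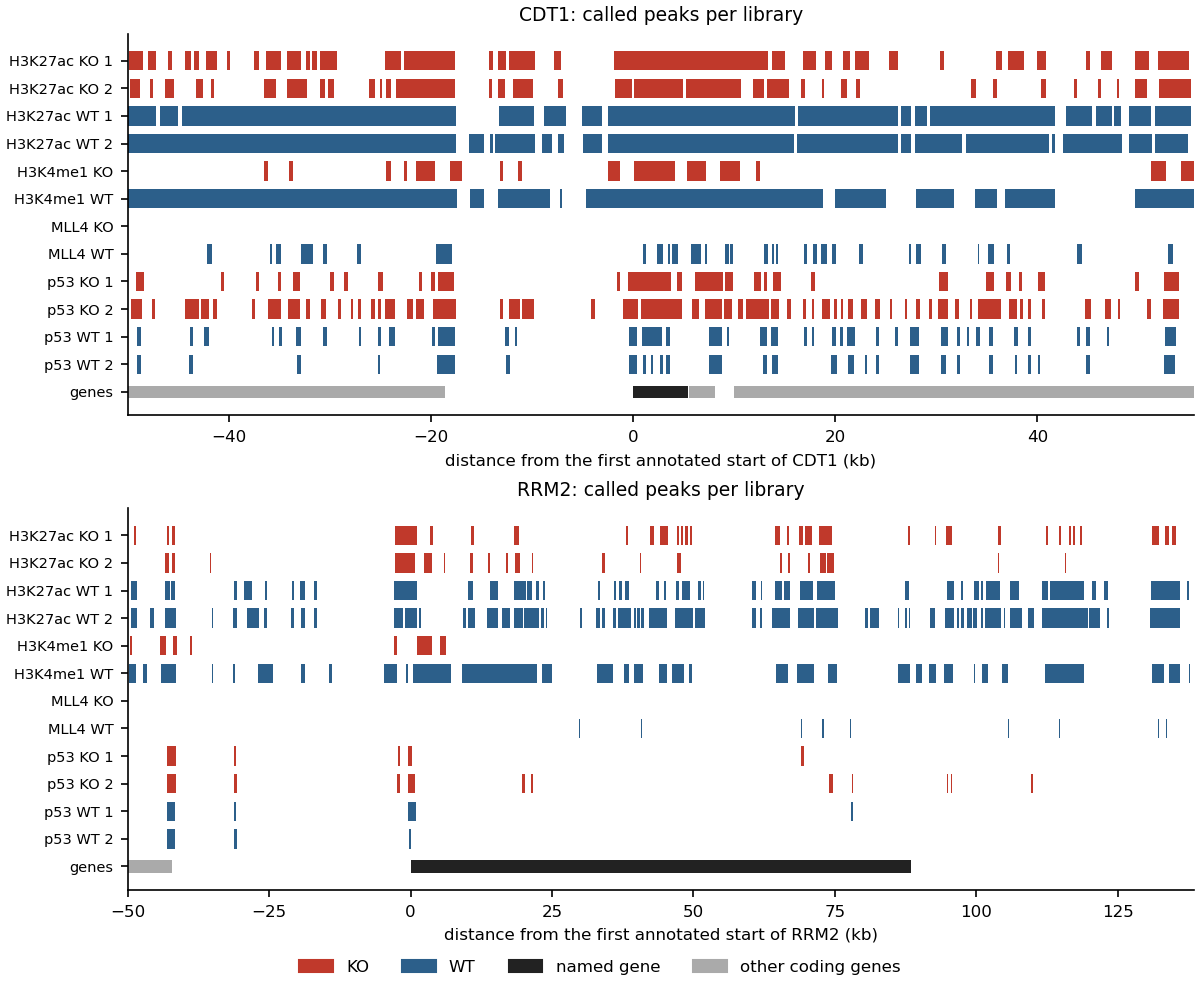
Peaks called in each library around CDT1 (top) and RRM2 (bottom), by distance from the first annotated start (kb); KO bars are red, WT bars blue, the named gene black and other coding genes grey. MLL4 has no peak in KO in either window, and the long H3K27ac and H3K4me1 blocks of WT around CDT1 appear as shorter pieces in KO.

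Starts of other genes in the windows were mostly called in both genotypes. All 15 H3K4me3 regions at such starts were called in every library. Of 20 H3K27ac regions of WT there, 3 were WT-only (18.2% of promoter regions), 1 each in the windows of MCM5, MCM6 and MCM10. Distal H3K4me3 was scarce, with 1 KO-only region of 9, at MCM3 (6.45% of distal regions of KO) and WT-only regions at CDC6 and CDT1, 2 of 10 (13.8%).

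A wider list of 56 other replication genes was measured the same way. It holds the origin recognition complex, GINS, the polymerases, replication factor C and other S phase genes. H3K4me3, H3K27ac and MLL1 were called in all libraries at 55. The exception was RPA3, a subunit of the single-strand binding protein, with none of the 3 within 1 kb of the start positions used here. Other start positions of RPA3 were not tested. H3K27ac was lower in both KO libraries at 50 of the 55, with a median log2 of −1.40 (88.2% and −0.95 over all promoters). ORC1, the largest subunit of the origin recognition complex, was among the other 5, at 0.22. H3K4me3 was lower at 12 (21.5% of all promoters) and higher at 2 (10.6%). Distal H3K27ac regions were WT-only at 269 of 480 (56.0%, against 62.1% of all distal regions), with the highest numbers near POLE (28), POLA2 (21), RFC2 (17) and LIG1 (16), which encode polymerase subunits, a clamp loader subunit and a DNA ligase. GMNN, which encodes the CDT1 inhibitor geminin, had 2 of the 8 KO-only regions.

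The promoters whose values over the 18 lists were closest to the median profile of the 10 genes were those of PTPA and CRAT, which share a promoter, MTCH2, FEZ2 and DHX35. Their mean absolute difference, on a log2(fold + 1) scale with 0 where no peak was called, was between 0.279 and 0.298, against a median of 1.10 for all promoters. The 10 genes themselves ranged between 0.351 for MCM6 and 0.993 for CDC6, so the family was not uniform in its profile.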

How the data were processed

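The 18 deposited peak lists of HCT116 cells were used. The submitters' processing notes name MACS2 2.1.1 and hg38; each library was called alone against the input of its genotype, per the names of the deposited lists. No source used here names an aligner, read filter or sequencing depth. The authors' lists give a fold (the ratio of ChIP to local background, at the summit in narrow lists and over the whole peak in the broad H3K4me1 lists), a −log10 p-value and a −log10 q-value, and a deposited score that is 10 times the −log10 q-value. Because the fold divides by a local background from the input, it moves with the input as well as with the ChIP. A missing peak means a value below the calling limit.

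Chromosomes 1 to 22 and X were used. Peaks of all libraries of a target that overlapped by at least 1 bp were merged into regions. Where a promoter had several peaks, the one of highest fold was taken. Fold was compared on the log2 scale with a two-sided exact permutation test per gene, and a difference was counted when the KO and WT libraries did not overlap. Shares over all promoters or regions stand beside counts of genes or regions by class or direction. Fragments and local background were solved from fold and −log10 p, with fragment numbers whole within 0.005 (plus a small allowance for large numbers). The steps were tested on simulated data. The class totals of 9200 H3K27ac regions, placed well apart, came out right. So did all 900 pairs of fold and p. These were made without noise by the formula and lowest level used to solve them, which checks the arithmetic only. Of 500 peaks tried per deposited list, 96.6% to 99.6% were solved for H3K4me3. For H3K27ac the shares were 66% and 63.4% in KO, against 91.2% and 83.6% in WT. Python 3.11.15, numpy 2.4.6 and scipy 1.17.1 were used.

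All 10 genes are named. Distal regions are named by highest fold per class, other replication genes by missing H3K4me3 and by the number of WT-only or KO-only regions. ORC1 and the regions of other targets were chosen after their values were seen. The genes, lists and tests were chosen with earlier results of these data known. The alternatives were a stricter −log10 q of 5 or more, lists of equal length, 25% cover, windows of 10 and 100 kb, promoters of 2 kb, leaving out each replicate, pairing by replicate number, and scaled folds.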

Additional observations from a re-analysis of the deposited data

How the results depend on the processing

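The presence of H3K4me3 and H3K27ac at all 10 promoters, and the lower H3K27ac fold in both KO libraries, held at −log10 q-values of at least 5, with promoters of 2 kb and with each replicate left out; presence also held with lists of equal length. The H3K27ac count was 8 to 10 over all alternatives. The lower H3K4me3 count of 3 was 3 to 8 with a replicate left out, 2 with scaled folds and 0 over the lowest level of the list, where MCM2 reversed to 0.10. Replicate numbers are not said to pair libraries. With the replicate block the H3K4me3 count was 4, the H3K27ac count 10, and distal H3K27ac counts were 3 KO-only and 61 WT-only, as without it by construction. Same-numbered libraries deviated apart (r = −0.22 for H3K4me3, −0.12 for H3K27ac over promoters), and crossed pairing gave counts of 4 and 10.

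Counts of distal regions moved with list length and window. H3K27ac WT-only regions numbered 17 with lists of equal length, 24 in windows of 10 kb, 108 in windows of 100 kb, and 75 to 140 with a replicate left out, against 61. KO-only regions numbered 1 at −log10 q of at least 5, 5 with lists of equal length and 3 to 11 with a replicate left out, against 3. H3K4me1 WT-only regions numbered 37, 18, 39 and 160 at −log10 q of at least 5, with equal length and in windows of 10 and 100 kb, against 93. p53 regions of KO numbered 25, 31, 16 and 88 under the same settings and 47 to 119 with a replicate left out, against 47. Those of WT numbered 35, 32, 11 and 78 under these settings and 38 to 55 with a replicate left out, against 38. MLL4 regions of WT numbered 28, 51 and 192 at −log10 q of at least 5 and in windows of 10 and 100 kb, against 101. MLL1 promoter peaks numbered 10 in KO and 9 to 10 in WT. Leaving out a replicate asks for fewer matching libraries, and a wider window holds more genome. The cause of the other differences was not tested. Read depth is unknown, 3 targets have 1 library per genotype, and all lists of a genotype share 1 input.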
